A study of Mus musculus with 9 samples.

Results

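The regions described here were open at D0, in mouse embryonic fibroblasts before reprogramming, and in none of 6 later time-course libraries. ATAC-Seq, in which the Tn5 transposase cuts accessible DNA and the cut ends are sequenced, had been run on cells driven towards pluripotency by Oct4, Sox2, Klf4 and c-Myc (OSKM). Overlapping peaks of the 7 time-course libraries were merged into 204843 union regions on chromosomes 1 to 19. Of these, 20379 held a D0 peak and no peak of D3, D6T-, D9T-, D12S+, D16S+ or iPSCs, and each was exactly 1 of the 80012 regions of the D0 library (25.5%). They are called D0-only regions. They were chosen by their measured peak calls, so their D0 levels and their absence from the other 6 libraries are given as a description, with no test.

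The starting fibroblasts, taken from embryos at E13.5, had EGFP linked through an IRES to their own Pou5f1 (Oct4) gene. Retroviruses of the pMXs type brought in OSKM. D0 cells were fibroblasts on day 0, and D3 cells were collected on day 3 after OSKM. D6T- and D9T- cells were Thy-1-negative on days 6 and 9, D12S+ and D16S+ cells were SSEA-1-positive on days 12 and 16, and iPSCs were induced pluripotent stem cells. Another pair of day 6 libraries came from Thy-1-negative cells treated with siRNA against H3.3 (D6 siH3.3) or with non-targeting siRNA (D6 siNT), and these played no part in the choice of regions. There was 1 library per condition, so no difference between conditions has a replicate check and no p-values are given. Shares carry 95% Wilson intervals and differences 95% Newcombe intervals. These cover the counting of regions only, and regions of 1 library are not replicates of a condition.

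The chromatin of a differentiated cell is open at promoters, many of them shared between cell types, and at distal enhancers, most of which are particular to a cell type. In fibroblasts, distal enhancers are known to be bound by AP-1, a dimer of Fos and Jun proteins, by TEAD proteins, which carry the output of the Hippo pathway, and by RUNX proteins. During reprogramming these elements close while those of the pluripotent state open. At D0, 11 of 14 fibroblast and mesenchymal marker genes had a region in the promoter (within 3 kb upstream of a transcription start site, TSS), against 7 of 14 in iPSCs. Of 10 pluripotency markers, 2 (Pou5f1 and Esrrb) had one at D0 and all 10 in iPSCs. Promoter regions at D0 were also called at 4 of 10 endothelial, 1 of 11 haematopoietic, 2 of 10 skeletal muscle and 6 of 8 neural markers, and in iPSCs at 6 of 10, 2 of 11, 3 of 10 and 8 of 8.

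These sequences come from some of the strongest D0-only regions and from some in matrix and mesenchymal genes. Only windows with a marked match are shown, so they do not stand for D0-only regions at large. Of the 15 regions of highest score, 7 held an AP-1, TEAD or RUNX match within 100 bp of the summit. An AP-1 match was in 8.98% of all D0-only regions. Regions without any of these matches, such as those in P4ha2 (28 tags) and Fbn1 (24 tags), are not shown. Each line is 121 bases of the mm9 reference (forward strand) centred on the D0 summit. Capitals mark exact matches to the AP-1 motif TGACTCA, the TEAD motif GGAATGT or the RUNX motif AACCACA on either strand (read on the other strand, AP-1 is TGAGTCA, TEAD is ACATTCC and RUNX is TGTGGTT). The first 5 belong to regions among the 15 with the highest score, and the last 4 to regions in Itga11 (an integrin that binds collagen), Ebf2 (a transcription factor of mesenchymal precursors), the promoter of Prrx2 (a limb mesenchyme homeobox gene) and Adamts2 (the enzyme that trims procollagen).
chr11:18490657-18490777: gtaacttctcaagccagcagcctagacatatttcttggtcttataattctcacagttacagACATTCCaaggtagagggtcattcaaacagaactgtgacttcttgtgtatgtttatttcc
chr12:36247644-36247764: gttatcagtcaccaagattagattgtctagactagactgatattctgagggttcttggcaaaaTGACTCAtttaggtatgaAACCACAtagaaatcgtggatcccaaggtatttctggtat
chr15:60673516-60673636: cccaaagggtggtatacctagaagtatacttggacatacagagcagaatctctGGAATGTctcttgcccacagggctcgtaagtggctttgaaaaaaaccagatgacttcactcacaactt
chr6:121294376-121294496: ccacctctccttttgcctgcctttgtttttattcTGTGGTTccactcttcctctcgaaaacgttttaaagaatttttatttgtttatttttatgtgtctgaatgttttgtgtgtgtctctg
chr9:34157722-34157842: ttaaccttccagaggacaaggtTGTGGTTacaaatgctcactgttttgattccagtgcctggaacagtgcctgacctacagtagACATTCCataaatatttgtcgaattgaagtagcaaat
Itga11 intron, chr9:62623405-62623525: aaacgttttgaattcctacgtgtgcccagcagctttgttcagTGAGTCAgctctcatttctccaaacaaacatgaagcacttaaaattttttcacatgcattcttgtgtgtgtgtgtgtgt
Ebf2 intron, chr14:67877263-67877383: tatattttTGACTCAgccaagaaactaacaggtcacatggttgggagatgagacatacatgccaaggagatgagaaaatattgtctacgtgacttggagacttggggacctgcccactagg
Prrx2 promoter, chr2:30698323-30698443: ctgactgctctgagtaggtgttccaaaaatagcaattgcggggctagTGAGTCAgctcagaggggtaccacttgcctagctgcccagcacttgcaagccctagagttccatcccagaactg
Adamts2 intron, chr11:50497541-50497661: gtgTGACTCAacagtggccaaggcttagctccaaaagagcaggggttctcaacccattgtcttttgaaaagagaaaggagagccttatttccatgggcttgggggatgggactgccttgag

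The first window, in an intergenic stretch, was the strongest D0-only region, with 60 tags at its summit and a TEAD match starting 1 base after it. The second, 27994 bp from the Ahr TSS (the aryl hydrocarbon receptor), held an AP-1 and a RUNX match and had 40 tags. The third, 16941 bp from the Fam84b TSS, had a TEAD match and 38 tags. The fourth lay in a promoter of Slc6a12, a betaine and GABA transporter, with a RUNX match and 36 tags. The fifth, intergenic and 135929 bp from the Kirrel3 TSS, had both a TEAD and a RUNX match and 36 tags. A match is a description of the letters and was not tested as a binding site.

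D0-only regions were weak. The pileup, the number of 200 bp tags over the summit, had a median of 14 (quartiles 13 and 16, highest 60), which is 0.441 tags per 1000000 tags of the library (CPM). In the other 59633 D0 regions the median was 20 (quartiles 16 and 27), or 0.631 CPM. The median score, the −log10 q-value of the peak caller, was 3.32 against 7.40, and the median width 251 against 355 bp. By summit level, 11118 D0-only regions (54.6%) had 11 to 14 tags and 8068 (39.6%) had 15 to 19. A further 1148 (5.63%) had 20 to 29 tags and 45 (0.221%) had 30 or more. D0-only regions made up 52.3% of all D0 regions at 11 to 14 tags, 29.5% at 15 to 19, 5.97% at 20 to 29 and 0.370% at 30 or more.

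**Figure D1:**
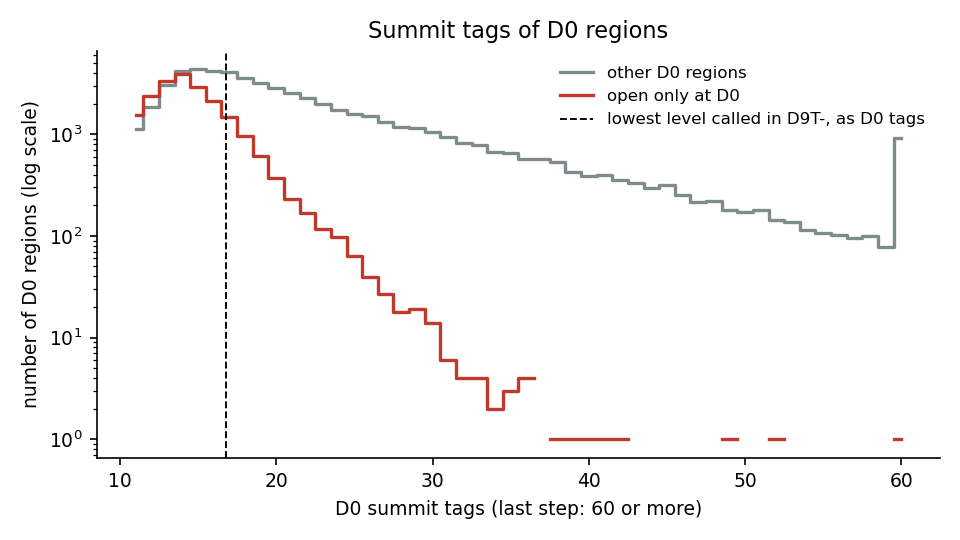
Number of D0 regions (log scale) at each number of summit tags, for regions open only at D0 (red) and the other D0 regions (grey). The red curve falls away above 14 tags, and the dashed line marks the lowest level called in D9T- (0.530 CPM) as D0 tags.

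Depth differed between the libraries, and its part in these calls was not tested. The D0 library was the deepest, with 31714845 tags, and the others held 13213117 (D9T-) to 30233396 (D3). The lowest level called was 11 tags or 0.347 CPM at D0, and 0.331 (D3) to 0.530 CPM (D9T-) in the other 6. All 20379 D0-only regions reached the lowest level called at D3, 18835 (92.4%) that of D6T- and the same number that of iPSCs. The level of D16S+ was reached by 13123 (64.4%), that of D12S+ by 9261 (45.4%) and that of D9T- by 4224 (20.7%). Only 17 had at least 2 times the D9T- level. For the 16155 that did not reach it, an equal level in D9T- was not detectable at its depth. In bulk cells, fewer cells with an open region and less opening per cell cannot be told apart. At the 13097 union regions called in all 7 libraries, the median level was 0.851 CPM at D0, the lowest of the 7, and 1.05 (iPSCs) to 3.23 CPM (D6T-) in the others.

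At the threshold of the rule, 1544 D0-only regions had the lowest called level of 11 tags. Over all 20379 D0-only regions, a region of another library lay within 100 bp of 801 and within 500 bp of 3270, and the median distance to the nearest was 2462 bp. On the other side, 179 D0 regions shared at most 1 to 20 bp with any other library and were left out, with a median of 14 tags, equal to that of the D0-only regions. A further description of what was left out is that 9459 D0 regions (11.8%) were present in just 1 other library, and 16075 (20.1%) in all 6.

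Most D0-only regions lay away from promoters. By the midpoint, 9658 (47.4%) were in introns, 7784 (38.2%) intergenic, 1868 (9.17%, interval 8.78 to 9.57) in promoters and 1069 (5.25%) in exons outside promoters. Of the other D0 regions, 35.1% were intronic, 33.9% intergenic, 24.4% in promoters and 6.54% exonic. The promoter share was 15.2 percentage points lower in D0-only regions (interval −15.7 to −14.7). It stayed lower at every summit level, from 9.78% against 20.7% at 11 to 14 tags to 6.67% (3 of 45) against 36.8% at 30 or more. The median distance to the nearest TSS of a protein-coding gene was 19446 bp against 11979 bp, and it lengthened among D0-only regions from 17626 bp at 11 to 14 tags to 38166 bp at 30 or more. Within 1 kb of such a TSS lay 5.26% of D0-only regions and 24.8% of the others.

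D0 regions that other libraries shared are the nearest comparison. Regions also present at D3, D6T- or D9T- but not later numbered 24410, and 8318 lasted until D12S+ but were absent from D16S+ and iPSCs. Their promoter shares were 8.14% and 8.64%, close to the 9.17% of D0-only regions, whereas 58.7% of the 16075 regions of all 7 libraries were in promoters. The AP-1 share differed between these groups, which were not matched for summit level. The median was 14 tags in D0-only regions, 18 in those lost after D3 to D9T- and 24 in those lost after D12S+. The AP-1 motif was found within 100 bp of the summit in 1830 D0-only regions (8.98%, interval 8.60 to 9.38). It was in 38.6% of the regions lost after D3 to D9T- and in 48.7% of those lost after D12S+. Among the 10830 D0 regions also at D16S+ or in iPSCs but not in all 7 it was in 12.9%, and in regions of all 7 in 7.29%. The share was 19.6% over windows of the same length (201 bp) in all 204843 union regions. In 33988 windows 2 kb to either side of D0-only summits that touched no union region, it was 2.95%. D0-only regions held the motif more often than their own flanks and less often than both groups of D0 regions that lasted longer but were absent from D16S+ and iPSCs.

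**Figure D2:**
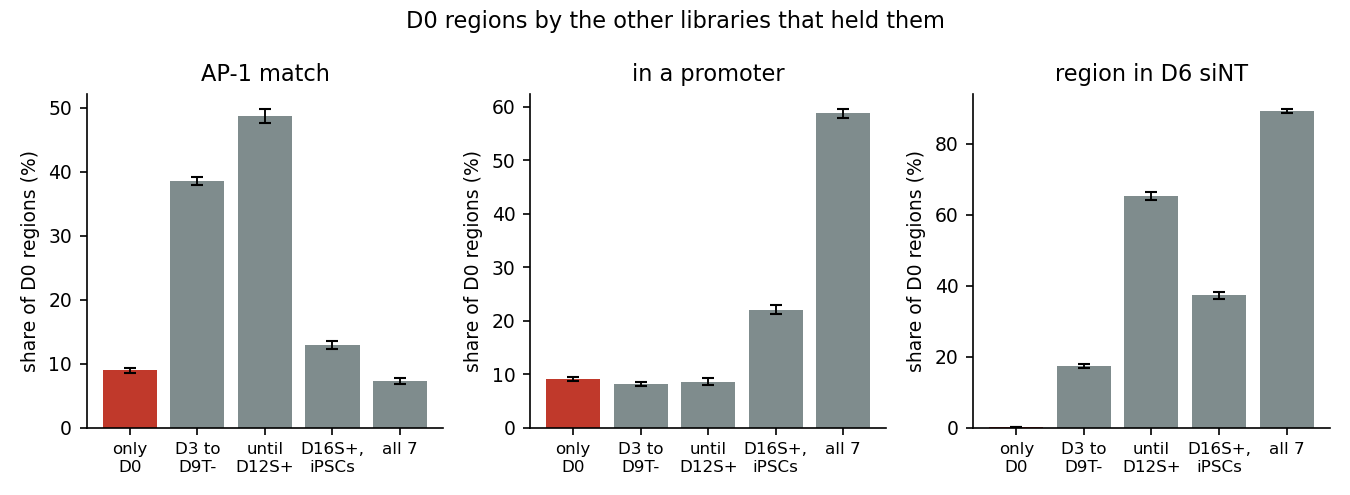
Share of D0 regions (%) with an AP-1 match within 100 bp of the summit, in a promoter, and with a region in D6 siNT, by the other time-course libraries that held the region. Bars are shares with 95% Wilson intervals. Regions open only at D0 (red) had an AP-1 match in 8.98%, a promoter position in 9.17% and a D6 siNT region in 0.201%.

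Against all other D0 regions (26.9%), the AP-1 share of D0-only regions was 17.9 percentage points lower (interval −18.4 to −17.4). It was lower at each summit level, with 6.82% against 17.9% at 11 to 14 tags, 10.7% against 25.3% at 15 to 19, 17.7% against 30.3% at 20 to 29, and 17.8% (8 of 45) against 31.9% at 30 or more. This direction depended on the peak threshold. With the same number of strongest regions kept in each library (35811), 8837 regions were open only at D0, 1902 of them D0-only by the rule used here, and their AP-1 share was 32.5% against 29.1% in the other D0 regions. The difference was then 3.39 percentage points (interval 2.28 to 4.52) the other way.

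TEAD and RUNX matches followed another course. Over all levels they were slightly rarer in D0-only regions, 5.62% against 6.72% for TEAD and 5.82% against 6.85% for RUNX. In flanks the shares were 2.60% and 4.61%. In the regions lost after D3 to D9T-, TEAD was in 9.32% and RUNX in 9.59%. In those lost after D12S+ the shares were 8.91% and 9.11%. The other D0 regions also include groups with fewer matches. TEAD was in 2.64% and RUNX in 3.04% of the 16075 regions of all 7 libraries. They were in 5.25% and 4.59% of the 10830 also at D16S+ or in iPSCs but not in all 7. The part of this make-up in the differences below was not tested. The shares of these groups were not split by summit level, so the levels below compare D0-only regions with all other D0 regions alone. The small difference to all other D0 regions turned under stricter thresholds. In regions open only at D0 under each setting, TEAD was 3.08 percentage points higher with the stronger 50% of each library's regions. It was 5.04 higher with the same number of regions per library and 2.29 among regions of 17 or more tags. RUNX was 1.67, 3.58 and 1.11 higher. D0-only regions by the rule used here made up 47.3% of the set from the stronger 50% and 21.5% of the set from equal numbers. At 20 to 29 tags, however, TEAD matches were in 13.4% of D0-only regions and 7.44% of the others, a difference of 5.98 percentage points (interval 4.09 to 8.11). At 30 or more tags they were in 26.7% (12 of 45) and 7.84%, a difference of 18.8 points (interval 8.12 to 33.2). RUNX matches were in 10.0% against 7.5% at 20 to 29 tags (difference 2.51, interval 0.861 to 4.42) and in 20% (9 of 45) against 7.49% at 30 or more (difference 12.5, interval 3.39 to 26.3). Among the 1193 D0-only regions of 20 or more tags, 434 (36.4%, interval 33.7 to 39.1) held at least 1 of the AP-1, TEAD and RUNX motifs, against 17.6% of those under 20 tags and 40.2% of other D0 regions of 20 or more tags. A TEAD and a RUNX match occurred together in 22 (1.84%, interval 1.22 to 2.78), against 0.808% (interval 0.714 to 0.916) of the other D0 regions of that level. AP-1 and TEAD matches occurred together in 2.01% against 2.48%, and 2 or more of the 3 motifs in 5.53% against 5.61%.

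**Figure D3:**
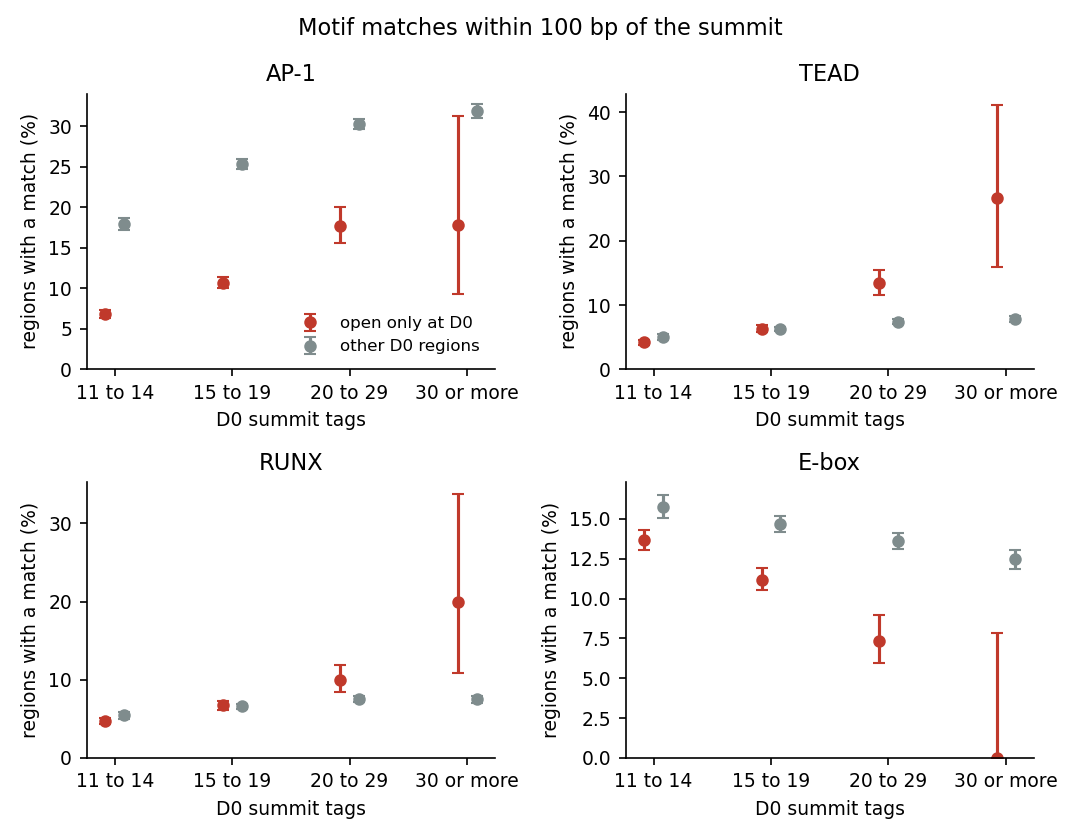
Share of regions (%) with an AP-1, TEAD, RUNX or E-box match within 100 bp of the summit, by D0 summit tags, for regions open only at D0 (red) and other D0 regions (grey). Points are shares and bars 95% Wilson intervals. AP-1 was lower in red at every level, while TEAD reached 26.7% and RUNX 20% in red at 30 or more tags.

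Matches were densest at the summits. In D0-only regions of 20 or more tags, TEAD matches occurred at 0.863 per kb within 50 bp of the summit and 0.136 per kb at 300 to 500 bp, a ratio of 6.34. The ratio was 7.83 for AP-1 and 3.13 for RUNX. In D0-only regions under 20 tags the ratios were 2.99 for AP-1, 2.1 for TEAD and 1.33 for RUNX. In the other D0 regions they were 10.8, 2.86 and 1.80. Those regions were taken at all summit levels, so they were not matched to either group of D0-only regions.

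**Figure D4:**
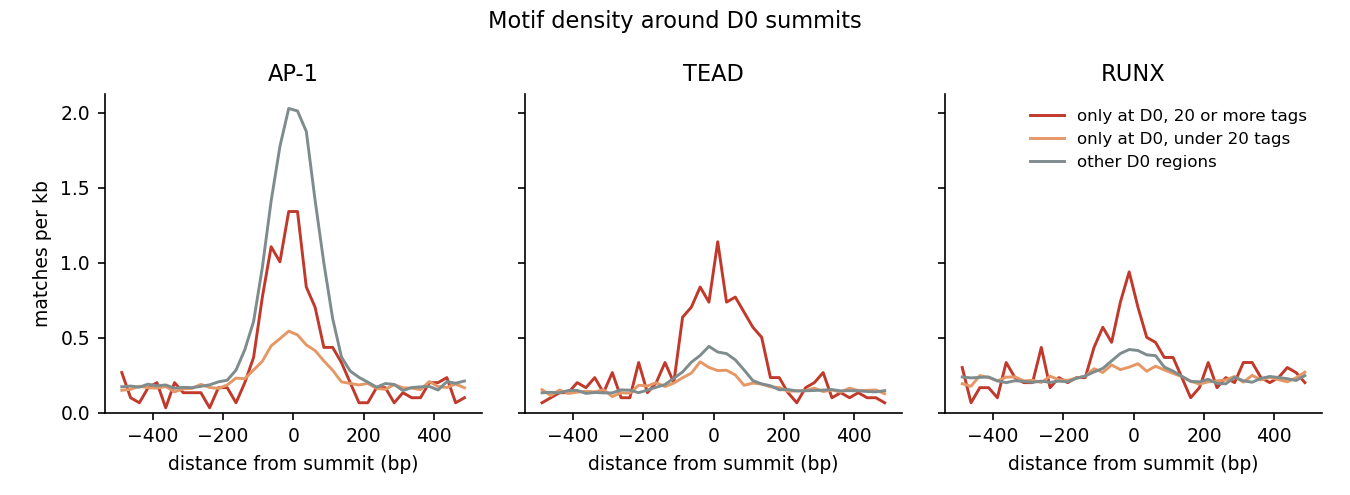
Matches per kb in steps of 25 bp against the distance from the D0 summit (bp) for AP-1, TEAD and RUNX. Lines are D0-only regions of 20 or more tags (red), those under 20 tags (orange) and other D0 regions of all summit levels (grey). All lines rise at the summit, and for TEAD and RUNX the red line is the highest there.

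Of the other motifs, the E-box CAGCTG was in 12.3% of D0-only regions and 14.1% of the others, and fell with the summit level from 13.6% at 11 to 14 tags to 7.32% at 20 to 29. At 30 or more tags it was in 0 of 45, where 3 counts would be 6.67% and the Wilson interval reaches 7.87%. The motifs of ETS factors, common at promoters, and of the insulator protein CTCF were rarer in D0-only regions at each level under 30 tags. The ETS motif CCGGAAG was in 0.692% against 3.72%, and the CTCF core AGGGGGC in 2.38% against 6.00%. The OCT motif ATGCAAA was in 3.28% against 3.24% (difference 0.0447, interval −0.232 to 0.334), but in 5.75% against 3.32% at 20 to 29 tags (difference 2.43, interval 1.19 to 3.95). The flanks of D0-only regions of that level held it in 4.51%. The KLF motif GGGTGTG was in 6.56% against 6.41% (difference 0.142, interval −0.246 to 0.540), and the SOX motif ACAATGG in 2.61% against 2.35%. The NFI motif TTGGCA was in 11.1% against 11.7%, the C/EBP motif TTGCNNAA in 5.91% against 7.99%, and the CRE TGACGTC, which differs from the AP-1 motif in spacing, in 0.461% against 1.79%. The MEF2 motif CTAAAAA was in 1.61% against 2.15% and the CArG box, bound by SRF, in 0.854% against 1.08%. The shares over all union regions were 4.98% for TEAD, 5.91% for RUNX, 15.5% for the E-box, 2.29% for ETS, 4.78% for CTCF, 4.37% for OCT, 8.08% for KLF, 4.11% for SOX, 11.1% for NFI, 8.37% for C/EBP, 1.05% for the CRE, 1.95% for MEF2 and 0.888% for the CArG box.

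Base composition moved with the summit level. The median GC content of the 201 bp window was 49.8% in D0-only regions, 50.7% in other D0 regions and 48.6% in the flanks. In D0-only regions it fell from 50.7% at 11 to 14 tags to 48.8%, 44.8% and 40.8% at the higher levels, while in the other D0 regions it was 52.2%, 50.2%, 50.2% and 52.2%. The part of GC content in the motif shares was not tested. The median number of CpG dinucleotides per window was 2 in D0-only regions, 3 in the others and 13 in regions of all 7 libraries, where CpG-rich promoters lie.

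The libraries of day 6 siRNA-treated cells, which the choice did not use, seldom held D0-only regions. The lowest level called was 0.413 CPM in D6 siNT and 0.4285 CPM in D6 siH3.3. The lower quartile of D0-only regions was 0.410 CPM at D0, so an equal level of the weakest ones was not detectable there. A D6 siNT region overlapped 41 of 20379 (0.201%, interval 0.148 to 0.273) and a D6 siH3.3 region 59 (0.290%, interval 0.225 to 0.373), against 35.1% and 35.4% of all D0 regions. Of the other D0 regions, 47.0% and 47.3% had one. These shares rose with the summit level, for D6 siNT from 24.3% at 11 to 14 tags to 79.9% at 30 or more, whereas in D0-only regions they were 0.171% (19 of 11118) and 0 of 45. The nearest comparison is with the 4794 other D0 regions that had no D6T- region, of which 4.01% (interval 3.49 to 4.60) had a D6 siNT region and 3.48% (interval 3.00 to 4.04) a D6 siH3.3 region. Those 4794 regions were not matched to D0-only regions by summit level. By the choice of regions, each of them also lay in another time-course library, whereas D0-only regions lay in none, so the comparison is not an even one. The shares of D0-only regions in D6 siNT and D6 siH3.3 had overlapping intervals. Both libraries held 5 D0-only regions. The strongest of these, 375950 bp from the TSS of Irx1, a homeobox gene, held an AP-1 match and had 25 tags at D0, 15 in D6 siNT and 12 in D6 siH3.3. A member in an intron of Adamts2, whose sequence is shown above, had 18 tags at D0, no D6 siNT region and 11 tags in D6 siH3.3.

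The 15 D0-only regions of highest score had 35 to 60 tags, and 9 of them were intergenic, 4 intronic, 1 exonic and 1 in a promoter. Their summit windows had 34.3% to 48.3% GC. The nearest region of another time-course library lay 226 to 35445 bp away, and none had a region in either siRNA library. A match to AP-1, TEAD or RUNX within 100 bp was found in 7. The third by score (chr7:114863044-114863553, 49 tags) lay in an intron of Ppfibp2, a liprin, and held none of these motifs. The fifth (chr3:82195176-82195686, 41 tags) overlapped an exon of Mtap9, a microtubule-associated protein of the spindle. The seventh (chr6:47150562-47151238, 39 tags) was in an intron of Cntnap2, a neuronal adhesion protein of the neurexin family. The ninth (chr1:62513189-62513479, 36 tags) was in an intron of Pard3b, a cell polarity gene.

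In promoters of protein-coding genes there were 1517 D0-only regions, and the 10 of highest score had 24 to 36 tags and 36.3% to 46.8% GC. The strongest was that of Slc6a12 (36 tags), followed by Arl5a, a small GTPase, and Actrt2, an actin-related protein, with 30 tags each. Frmd4a, a scaffold of epithelial polarity, had 29 tags and a TEAD match. Grb7, an adaptor of receptor tyrosine kinases, had 28 tags. Gtdc1 (27), the calcium-binding protein gene S100a3 (26), the glucosyltransferase gene B3galtl (25), and Susd2 and Mpped1 (24 each) completed them. The Susd2 region lay 60 bp from a region of another library. None of the 10 held an AP-1 match.

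In lists of fibroblast function, 0% to 16.8% of the D0 regions were D0-only. Counting D0 regions from 3 kb upstream of the TSS to the end of the gene, 12502 of 53687 in all protein-coding genes (23.3%) were D0-only. A region in overlapping genes was counted in each. In 44 fibroblast and mesenchymal genes 12 of 147 (8.16%, interval 4.73 to 13.7) were, and in 40 collagen and matrix genes 22 of 194 (11.3%, interval 7.61 to 16.6). The share was 4.71% (4 of 85) in TGF-beta signalling genes and 6.42% (7 of 109) in SRF and contractile actin genes. No region of the 14 AP-1 subunit genes was D0-only (0 of 36, where 3 counts would be 8.33% and the Wilson interval reaches 9.64%). In the MAPK cascade it was 50 of 297 (16.8%), of which 33 lay in Fgfr2, whose gene model spans 3009069 bp of the annotation and runs over other genes. Without Fgfr2 the share was 17 of 137 (12.4%, interval 7.89 to 18.98). With the same number of strongest regions per library, the shares were 21.3% (17 of 80) for fibroblast genes and 26.6% (25 of 94) for matrix genes, beside 24.7% of all D0 regions. They were then 13.2% (7 of 53) for TGF-beta genes and 11.9% (7 of 59) for contractile genes. The 24.7% includes intergenic regions, and the share over all protein-coding genes was not computed for this setting.

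The fibroblast genes with a D0-only region were 6 of 44. Itga11 had 3 among 6 D0 regions, the strongest with 27 tags and an AP-1 match. Mme, a membrane peptidase, had 1 of 6 (19 tags), Ebf2 1 of 7 (18 tags) and Prrx2 1 of 4 (17 tags). Fbln1, which encodes the matrix protein fibulin-1, had 2 of 9. Of the defining markers Thy1, Twist1, Col1a1, Col1a2, Pdgfra, Pdgfrb and Postn, all with a D0 promoter region, none had a D0-only region in the promoter or the gene.

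Among matrix genes, P4ha2, a subunit of the enzyme that hydroxylates collagen prolines, had the strongest D0-only region, with 28 tags in an intron. Fbn1, fibrillin-1 of the microfibrils, had 1 of 10 (24 tags). Adamts2 had 6 of 18 (up to 18 tags), Col16a1 4 of 13 (up to 14), and Col15a1 (17), Ltbp2 (18) and Col6a2 (15) had 2 each. Col5a1, a fibrillar collagen chain, had 1 of 7, with 17 tags and an AP-1 match. Of TGF-beta signalling genes, the receptor gene Acvr1 had a region of 21 tags with an AP-1 match. Tgfbr3 (betaglycan, a co-receptor) had 1 of 16 tags with a TEAD match. The target gene Tgfbi had a promoter region of 16 tags, and Ski, a repressor of the pathway, a region of 15 tags. A region of another library lay 76 bp from that of Tgfbi and 64 bp from that of Ski. Where regions within 500 bp counted as shared, 2 of 85 D0 regions of this list were open only at D0. Tagln (2 regions, up to 17 tags), Myh11 (3, up to 16), Lmod1 (17) and Tpm4 (17) were the contractile genes with D0-only regions. In the MAPK cascade, Mapk4 had 3 (up to 21 tags) and Mapk10 2 (up to 19 tags).

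In lists of other lineages the shares were 20.5% to 77.4%, with wide intervals. The 23.3% over all protein-coding genes lay within the intervals of the endothelial, neural, haematopoietic and pluripotency lists. The share was 31.8% (14 of 44, interval 19.999 to 46.6) in 10 endothelial markers. All 9 D0 regions of the receptor gene Tie1 were D0-only. The share was 29.2% (7 of 24, interval 14.9 to 49.2) in 8 neural markers, with 4 of 10 in Sox10, a neural crest factor. In 11 haematopoietic markers it was 25.0% (3 of 12, interval 8.89 to 53.2). In skeletal muscle markers it was 77.4% (24 of 31, interval 60.2 to 88.6), but 22 of these lay in Pax7, a factor of muscle precursors. Without Pax7 the share was 2 of 6, and its interval (9.68 to 70.001) also included 23.3%. In 23 pluripotency genes it was 20.5% (8 of 39, interval 10.8 to 35.5), and all 8 lay in Esrrb, with 13 to 19 tags in the 6 strongest. The Esrrb promoter region among them lay 62 bp from a region of another library. Several of these shares depended on the setting. Among regions at or above the lowest called level of every library, 10.5% (2 of 19) of endothelial and 25% (2 of 8) of neural regions were open only at D0. It was 28.6% (2 of 7) for haematopoietic, 33.3% (2 of 6) for skeletal muscle and 21.1% (4 of 19) for pluripotency genes. With the same number of strongest regions per library, the shares in the same order were 46.7% (7 of 15), 33.3% (2 of 6), 20% (1 of 5), 40% (2 of 5) and 38.5% (5 of 13). The pluripotency share was 10.3% (4 of 39) where regions within 500 bp counted as shared. The neural share was 45.8% (11 of 24) where sharing needed an overlap of 50% of the shorter region.

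Among the 10 protein-coding genes with the most D0-only regions, Gm20388 (190 of 512) came first and is a gene model of 4434882 bp that runs over many genes. Rbfox3, the neuronal splicing factor NeuN, had 111 of 158 D0 regions (70.3%). Atp2b2, a calcium pump of neurons and hair cells, had 84 of 102. The cadherin genes Cdh4 and Cdh23, the latter part of the tip links of hair cells, had 68 of 88 and 52 of 70. The synaptic adhesion gene Igsf21 had 59 of 73, and Prdm16, a factor of brown fat and vascular development, 59 of 78. Camta1, a calmodulin-binding factor of brain, had 58 of 102, and Grik3, a kainate receptor subunit, 49 of 55. No D0-only region in these genes exceeded 30 tags. Of 21418 protein-coding genes, 4236 had at least 1 D0-only region and 213 had 10 or more. Of 15304 genes with a D0 region, 694 had only D0-only ones, and 97 of these had 3 or more. Examples of that kind, chosen after their values were seen, had 15 in Igsf5, a junction protein, and 11 each in Bpifb6 and Itgb2l. Itgb2l lies inside the gene model of Igsf5, so its regions are counted for both.

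D0-only regions were spread unevenly over the genome at the scale of 1 Mb. In 1 Mb bins of the genome (2482 bins), the 248 fullest (10%) held 55.6% of D0-only regions, and the 248 fullest for the other D0 regions held 28.1% of those. No D0-only region was found in 431 bins and no other D0 region in 115, with 20379 D0-only and 59633 other D0 regions to fill them. Another region of the same kind lay within 10 kb of 59.0% of D0-only and 59.8% of other D0 regions. The bin with the most held 162 among 211 D0 regions (76.8%), at chr4:139000001-140000000, where Igsf21 and Pax7 lie. The next, at chr4:153000001-154000000, where most of Prdm16 lies, held 161 of 244, and the bin of Rbfox3 on chromosome 11 held 145 of 255. By chromosome, the D0-only share of D0 regions ran from 13.7% on chromosome 3 (interval 12.6 to 14.8) to 33.6% on chromosome 4 (interval 32.5 to 34.8). Chromosomes 15 (31.4%), 5 (30.7%), 2 (29.9%) and 7 (29.7%) were also high. Per Mb there were 3.11 D0-only regions on chromosome 3 and 13.4 on chromosome 4, and 19.6 and 26.5 other D0 regions. At regions of all 7 libraries, the median log2 ratio of D0 over D3 CPM was −1.25 on chromosome 3 and −1.15 on chromosome 4. This ratio covers shared regions alone, and the cause of the differences between chromosomes was not tested.

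**Figure D5:**
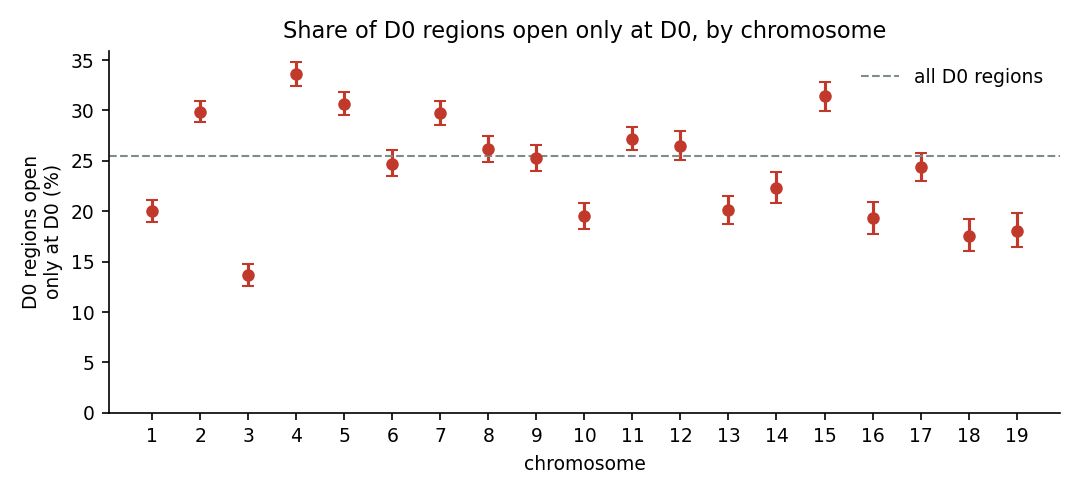
Share of D0 regions (%) that were open only at D0 on chromosomes 1 to 19, as points with 95% Wilson intervals. The dashed line is the share over all D0 regions, 25.5%, with chromosome 4 highest (33.6%) and chromosome 3 lowest (13.7%).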

How the data were processed

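ATAC-Seq peak files of 9 libraries were used, 7 of the time course and 2 of siRNA-treated day 6 cells, 1 per condition. Per the submitters' processing notes and the file headers, STAR aligned 51 bp reads to mm9, Picard removed duplicates, and MACS2 2.1.0.20151222 found peaks with no control library, with tags extended to 200 bp, a q-value cutoff of 0.05 and local background switched off, so that 1 threshold held for the whole genome. For each summit the deposited signal is the pileup, which counts the tags covering it and does not correct for depth. The deposited fold enrichment is a ratio to evenly spread tags, and the deposited significance is −log10 of the p-value and q-value. Values in different libraries are comparable only after division by total tags (CPM).

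Overlapping peaks of a library were merged, keeping the summit of highest −log10 q-value as level and score, and regions sharing 1 bp or more were joined between libraries on chromosomes 1 to 19. Coordinates are mm9 (NCBIM37), counted from 1, with genes of GENCODE vM1 (34653 genes on these chromosomes). The promoter was 3 kb upstream of any transcript's TSS and the region's midpoint decided its class, in the order promoter, exon, intron, intergenic. Exact matches to 14 motifs, on both strands, and GC content were read within 100 bp of the summit. The AP-1 and CRE motifs both begin with TGAC, but 1 exact match cannot be of both. Level bands of summit tags set D0-only regions beside other D0 regions of like strength. Named regions were the 15 of highest score, the 10 highest in promoters of protein-coding genes, up to 6 per gene list (11 lists, 249 genes, written by hand), and the 10 genes with most D0-only regions. Some of the genes so named are not reported here. The regions and the lists were chosen with earlier results of these data known. Alternatives were other overlaps, thresholds, libraries, promoter limits and windows. Differences of motif and promoter shares and shares of gene lists under these alternatives, and lists without Fgfr2 or Pax7, were added after seeing the data. Intervals are 95%. Scripts used pysam 0.24.0, SciPy 1.17.1, pandas 2.3.3 and NumPy 2.4.6 under Python 3.11.15, matplotlib 3.10.9 drew the figures, and functions were tested on simulated data. Peaks on chromosomes X and Y, unplaced sequences and the mitochondrial genome were left out of the main counts.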

Additional observations from a re-analysis of the deposited data

Results flagged for a closer look

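On chromosome X, which the choice of regions left out, 136 of 969 D0 regions (interval 11.99% to 16.4%) had no region in the other 6 time-course libraries. These are given because they lie outside the regions the choice used. Their median summit level was 15 tags. The share lay at the low end of the range of the autosomes, 13.7% to 33.6%. With 1 library per condition, no group had enough samples to look for libraries that stood apart.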

How the results depend on the processing

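Counting an overlap only when it covered 50% of the shorter region gave 27.3% of D0 regions as open only at D0 and 9.74% in promoters. Counting regions within 500 bp as shared gave 21.4% of D0 regions, 8.01% in promoters, 9.47% with AP-1, a median GC of 49.3%, 0.374% in D6 siH3.3, and differences to other D0 regions of −16.4 percentage points for AP-1 and −15.9 for promoters. The stronger 50% of each library's regions gave 8930 regions open only at D0, 19.8% of D0 regions. Of these 8930, 47.3% were D0-only as reported. They had 8.58% in promoters, 22.3% with AP-1, a median of 0.599 CPM and 46.8% GC, 2.14% in D6 siNT and 2.39% in D6 siH3.3. The differences were −7.52 for AP-1, −20.0 for promoters, and turned to 3.08 for TEAD and 1.67 for RUNX. The same number of strongest regions per library gave 8837 regions, 24.7% of D0 regions, with 7.71% in promoters, 32.5% with AP-1, a median of 0.662 CPM and 45.8% GC, 6.08% in D6 siNT and 7.14% in D6 siH3.3. The differences were −25.3 for promoters and turned to 3.39 for AP-1, 5.04 for TEAD and 3.58 for RUNX. This setting drops weak regions of D3 and D6T- along with those of D0, and 21.5% of its regions were D0-only as reported. Only D0 levels at or above every library's lowest called level gave 4224 regions, 9.35% of D0 regions, with 7.86% in promoters, 14.2% with AP-1, a median of 0.568 CPM and 46.8% GC, 0.331% in D6 siNT and 0.497% in D6 siH3.3. The differences were −15.6 for AP-1, −18.5 for promoters, and turned to 2.29 for TEAD and 1.11 for RUNX. When promoters reached from 1 kb before to 100 bp after the TSS, the promoter share was 3.67%. With windows of 50 and 150 bp to each side, the AP-1 share was 5.07% and 11.3% and the median GC 49.5% and 49.8%. Leaving out D9T- (20396 regions) or asking for absence from both siRNA libraries (20284) moved none of the shares beyond its interval. No paired analysis was possible because each condition had 1 library and no test was made. No level under 0.530 CPM was called in D9T-, and leaving that library out changed the count from 20379 to 20396. The part of depth in the absence calls was not tested. Beyond the settings' own construction, the cause of the shifts between settings was not tested.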
